A study of Mus musculus with 2 samples.

Results

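Retinoic acid is made, carried, sensed and destroyed by a small set of proteins, and 9 of their genes were followed here in the neural tube of newborn mice: the synthesis enzymes Aldh1a1, Aldh1a2 and Aldh1a3, the binding proteins Crabp1 and Crabp2, the receptors Rara, Rarb and Rarg, and the breakdown enzyme Cyp26b1. They were picked by name and role, with no threshold on a measured value but with earlier results of these data known, and all 9 were found among the 43346 gene rows of the deposited tables. Total RNA longer than 200 bases was sequenced from 10 ng of RNA of a single neural tube from each of 2 newborn pups (postnatal day 0, strain B6NCrl). The labels name no mutation and no treatment, both pups came from 1 litter, and their sex was not collected. The series is thus a single group of n = 2 without a treated or mutant arm. The pups are separate animals, but they are litter mates and each gave 1 library, so a difference between them cannot be checked against replicates and is given without a p-value.

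In outline, alcohol dehydrogenases and retinol dehydrogenases turn retinol into retinaldehyde, the ALDH1A enzymes oxidise retinaldehyde to retinoic acid, and CRABP proteins bind the acid in the cytoplasm. Retinoic acid then binds a retinoic acid receptor (RAR) that sits on DNA with a retinoid X receptor (RXR), and CYP26 enzymes oxidise the acid so that it can be cleared. In the developing mouse spinal cord the pathway is known for patterning along the length of the cord and for motor neuron identity, with Aldh1a2 made by the meninges and by motor neurons at limb levels.

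Levels are given as TPM, an abundance corrected for transcript length and scaled by the authors to a fixed total in each library. Gene rows summed to 26916914 expected counts in pup 1 and 40003490 in pup 2, of which the 9 genes took 8901 and 14073.01. Markers of position fitted a tissue of spinal cord levels. Hoxb6 had 94.3 TPM in pup 1 and 84.2 TPM in pup 2. Otx2, a forebrain and midbrain gene, had 0 counts in both pups, which allows up to 0.111 CPM (counts scaled to the library's size) in pup 1 and 0.075 CPM in pup 2. The libraries also held RNA of other tissues: the 4 blood genes summed to 3369 and 2576 TPM, the 5 skeletal muscle genes to 55.3 and 53.5 TPM, and the 11 genes of meninges and fibroblasts to 1876 and 3374 TPM. In bulk tissue, fewer cells of a type and less RNA per cell cannot be told apart.

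Rara and Rarg are each listed with 2 main receptor forms that begin differently and end alike, and the first 60 coding bases of their leading transcripts are shown because the transcript shares given further on divide along this difference. The sequences come from GENCODE M21, the start codon is in capitals, and they run 5′ to 3′.
Rara-202: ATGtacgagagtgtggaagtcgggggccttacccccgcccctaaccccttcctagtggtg
Rara-203: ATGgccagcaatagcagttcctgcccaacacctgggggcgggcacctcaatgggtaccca
Rarg-202: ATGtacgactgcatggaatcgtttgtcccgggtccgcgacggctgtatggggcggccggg
Rarg-201: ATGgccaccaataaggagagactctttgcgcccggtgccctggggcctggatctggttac
The Rara forms shared their last 1208 coding bases, after 169 first bases of its own in Rara-202 and 178 in Rara-203. The Rarg forms shared their last 1191 coding bases, after 150 first bases of their own in Rarg-202 and 183 in Rarg-201. All 4 lines differ from each other after the start codon.

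A direct repeat of the receptor half-site, spaced by 5 bases, is the textbook retinoic acid response element, and Rarb and Cyp26a1 are the genes it is best known from. It is shown here with 6 flanking bases, as read by RefSeq on GRCm38.p6, with the match in capitals. The Rarb stretch is on the minus strand at chr14:16575507-16575535 and the Cyp26a1 stretch on the plus strand at chr19:37697770-37697798.
Rarb: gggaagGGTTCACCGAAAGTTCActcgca
Cyp26a1: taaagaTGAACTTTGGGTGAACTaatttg
The search took any pair of the half-sites AGGTCA or AGTTCA or GGGTCA or GGTTCA, 5 bases apart, on both strands, in windows from 250 bases before to 50 after each RefSeq start. The Rarb match lies 53 to 37 bases before that start. It falls inside the first exon of Rarb-201 in GENCODE M21, which starts further upstream at position 16575543. The Cyp26a1 match lies 32 to 16 bases before its start and reads on the other strand. Of 32851 windows, 32 held such a repeat (0.0974%). Among the members, 7 had 12 windows between them, and Rarb alone held a match; Crabp2 and Aldh1a3 had no entry. Repeats spaced by 1 base (73 windows, 0.222%) and by 2 bases (88 windows, 0.268%) were in no member's window. A match is a string of letters and does not show binding.

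**Figure D1:**
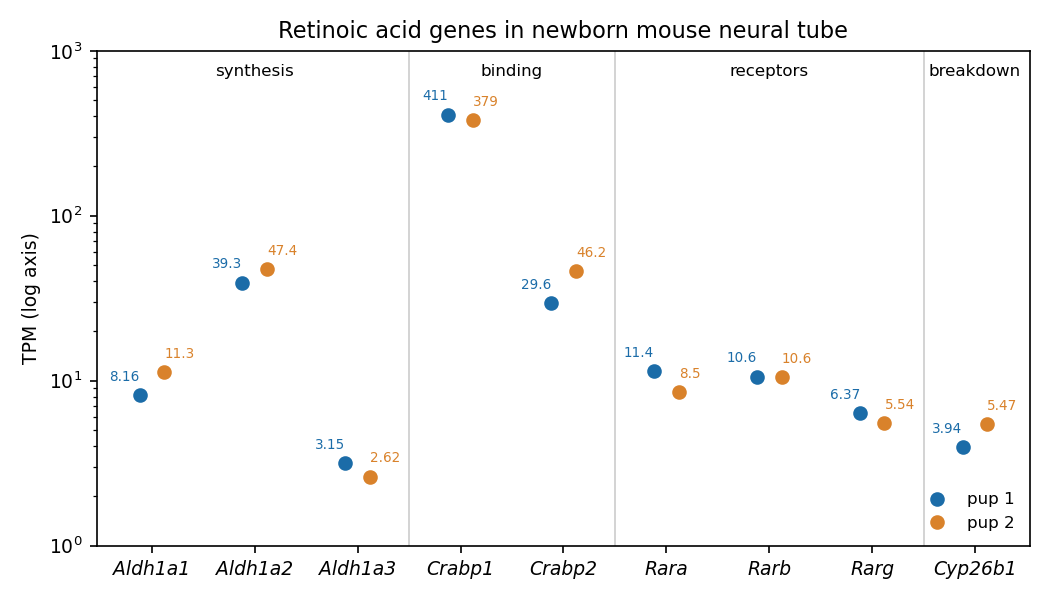
TPM on a log axis for the 9 retinoic acid genes, grouped by role, with 1 point for each pup (pup 1 left, pup 2 right) and its value beside it. Crabp1 stands apart at 410.66 and 379.39 TPM, and within the synthesis enzymes Aldh1a2 is highest in both pups.

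All 9 genes reached a TPM of at least 1 in both pups, a level that 35.5% of all gene rows and 63.8% of protein-coding rows reached. Their means spanned from 2.885 TPM for Aldh1a3 to 395 TPM for Crabp1, and the median gene of the 9 was Rara at 9.94 TPM. In order of mean TPM they ran Crabp1, Aldh1a2, Crabp2, Rarb, Rara, Aldh1a1, Rarg, Cyp26b1 and Aldh1a3. Between neighbours in that order, the values of the pups overlapped for Aldh1a2 and Crabp2, for Rarb and Rara, and for Rara and Aldh1a1. Within each pup Aldh1a2 still stood above Crabp2, at 39.28 against 29.58 TPM in pup 1 and 47.4 against 46.25 TPM in pup 2. Rarb and Rara, and Rara and Aldh1a1, changed order between the pups. The step from Rarg to Cyp26b1 was narrow, since the lower Rarg value was 5.54 TPM and the higher Cyp26b1 value 5.47 TPM. The other neighbours did not overlap.

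Among the synthesis enzymes, Aldh1a2, the main retinaldehyde dehydrogenase of the embryo, was the highest. It had 39.28 TPM in pup 1 and 47.4 TPM in pup 2 (43.3 ± 5.74, SD, n = 2; chromosome 9, 71215789 to 71296243, plus strand, GRCm38), from 1467 and 2727 counts. Aldh1a1, a cytosolic enzyme of the same family, had 8.16 and 11.31 TPM (9.735 ± 2.23; chromosome 19, 20492715 to 20643465, plus strand). Aldh1a3, the third enzyme, known from the eye and the nasal region, had 3.15 and 2.62 TPM (2.885 ± 0.375; chromosome 7, 66390890 to 66427517, minus strand), from 96 and 139 counts. Aldh1a2 thus held 77.6% and 77.3% of the summed TPM of the 3 enzymes, 4.81 and 4.19 times the level of Aldh1a1 and 12.5 and 18.1 times that of Aldh1a3. The pups differed by far less in the Aldh1a2 share than in its level. Aldh1a1 has a near-identical neighbour, Aldh1a7, at 3.09 and 3.94 TPM. The deposited spread of the Aldh1a1 count from dividing shared reads was 0 in pup 1 and 0.04 counts in pup 2, but the division itself was the authors' and was not tested.

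One of the binding proteins stood far above the other members, and the other was close to Aldh1a2. Crabp1, which binds retinoic acid in the cytoplasm, had 410.66 TPM in pup 1 and 379.39 TPM in pup 2 (395 ± 22.1; chromosome 9, 54764748 to 54773110, plus strand), from 4980 and 7087 counts. It ranked 335 of the 13912 protein-coding genes with a mean TPM of at least 1, within the top 2.41%, and the next member, Aldh1a2, ranked 3715. Crabp2, which passes retinoic acid on to the receptors, had 29.58 and 46.25 TPM (37.9 ± 11.8; chromosome 3, 87948666 to 87953376, plus strand). Crabp1 was 13.9 and 8.20 times as high as Crabp2, and it made up 93.3% and 89.1% of their sum. That ratio varied between the pups mainly through Crabp2, the member whose TPM differed most between them as a ratio.

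The 3 receptors were of like, modest level. Rarb had 10.59 TPM in pup 1 and 10.55 TPM in pup 2 (10.57 ± 0.028; chromosome 14, 16430839 to 16819156, minus strand). Rara had 11.38 and 8.5 TPM (9.94 ± 2.04; chromosome 11, 98927818 to 98974942, plus strand). Rarg had 6.37 and 5.54 TPM (5.955 ± 0.587; chromosome 15, 102234938 to 102257517, minus strand). Rara led in pup 1 and Rarb in pup 2, with Rarb at 0.931 and 1.24 times Rara, while Rarg was the lowest in both pups and held 22.5% of the receptor sum in each. With the posterior mean TPM, a second estimate in the deposited tables, the receptors drew level: Rarg became 11.56 and 8.94 TPM, and Rara, Rarb and Rarg then held 34.8%, 30.6% and 34.5% of the sum in pup 1 and 31.9%, 36.5% and 31.6% in pup 2.

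Rarb also has an overlap to be stated. In GENCODE M21, 1793 of the 3108 exon bases of Rarb-201 lie opposite Top2b-201, a topoisomerase transcript on the other strand. That transcript is 10335 bases long in M21 and 5660 in the deposited tables, so how much overlap the deposited annotation held is unknown. The strand setting is not given in the sources used here, Top2b had 4498 and 7456 counts, and the Rarb level is uncertain to that extent.

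Cyp26b1, a P450 enzyme that oxidises retinoic acid, had 3.94 TPM in pup 1 and 5.47 TPM in pup 2 (4.705 ± 1.08; chromosome 6, 84571414 to 84593908, minus strand), from 314 and 669 counts. The other genes of its family were lower. Cyp26a1 had 1.21 and 0.99 TPM, and thus reached a TPM of 1 in pup 1 alone, with 39.5 counts on average. Cyp26c1 had 0.04 and 0.02 TPM. The summed TPM of the 3 synthesis enzymes was 50.59 in pup 1 and 61.33 in pup 2, or 12.8 and 11.2 times that of Cyp26b1. The synthesis sum and Cyp26b1 were both lower in pup 1, and their ratio differed less between the pups than either level did.

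**Figure D2:**
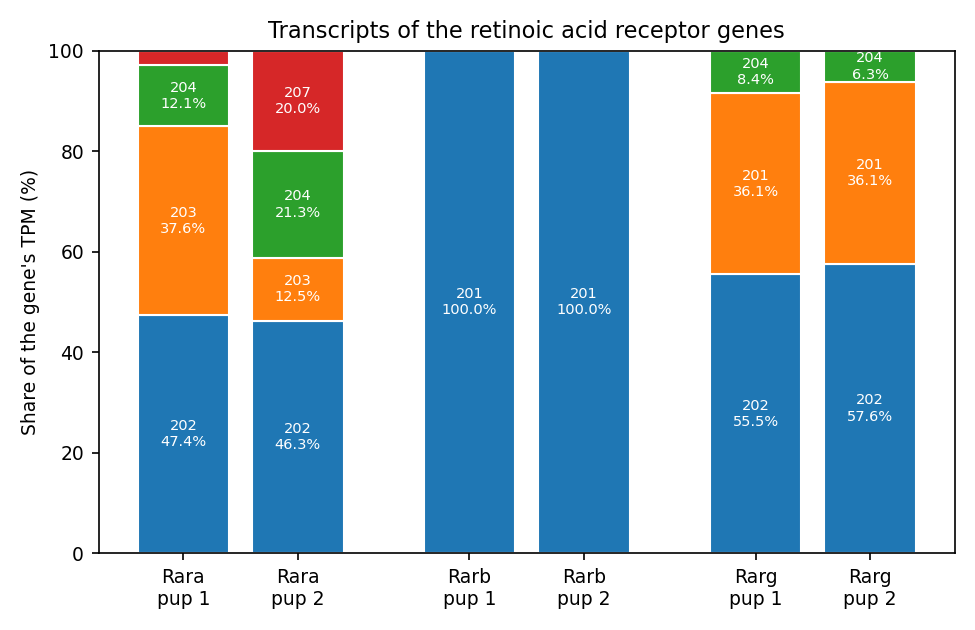
Share of each transcript in the TPM of its receptor gene (percent, stacked to 100), with pup 1 left of pup 2 for each gene and the transcript number and share written in the bars. Rara-202 keeps 47.4% and 46.3% while the other Rara transcripts trade places, Rarb has 1 transcript, and Rarg-202 leads Rarg in both pups; the unlabelled segment of Rara in pup 1 is Rara-207 at 2.9%.

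The receptor genes differed in their transcripts. The deposited tables list 1 transcript for Rarb, against 7 in GENCODE M21, so the receptor forms of Rarb could not be separated. In M21 that transcript, Rarb-201, covers 16430839 to 16575543, only a part of the gene interval given with the Rarb level. Rara-202, whose transcript begins inside the gene at position 98960412, held 47.36% of Rara TPM in pup 1 and 46.26% in pup 2 (46.8 ± 0.778). Rara-203 held 37.62% and 12.51%, Rara-204 12.13% and 21.27%, and Rara-207 2.9% and 19.96%. These 3 transcripts, and Rara-201 at 0, have the same coding sequence of 1386 bases and differ outside it. Summed by coding sequence, they held 52.65% and 53.74% (53.2 ± 0.771). The balance of the Rara proteins, as far as transcripts show it, was thus near even and alike in the pups, while the split among transcripts with the same protein differed widely between them.

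Rarg-202 held 55.49% of Rarg TPM in pup 1 and 57.58% in pup 2 (56.5 ± 1.48), and Rarg-201 held 36.09% and 36.14% (36.1 ± 0.035). Rarg-204, a fragment of 423 bases with 3 counts in each pup, took 8.42% and 6.29%. The posterior estimate moved much of the gene onto Rarg-206, a transcript of 111 bases with an effective length of 12 bases and 0 counts in both pups, which then held 40.43% and 34.31%. The Rarg shares and the Rarg level depend on that short transcript: the deposited interval of the gene ran from 5.97 to 21.2 TPM in pup 1 and from 5.23 to 15.3 TPM in pup 2. Between Rarg-202 and Rarg-201 the order was the same under both estimates.

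For all 9 members the leading transcript was the same in both pups. For Aldh1a3, a transcript with 528 coding bases held 80.88% of TPM in pup 1 and 69.21% in pup 2, while the transcript with 1536 coding bases held 19.12% and 30.79%. By expected counts, not divided by length, the transcript with 1536 coding bases held 36.1% and 51.6%. Much of the low Aldh1a3 level therefore came from a transcript with the shorter coding sequence, on 61.31 and 67.33 counts. Cyp26b1 had its leading transcript at 73.87% and 100%, and the remainder in pup 1 was a transcript with the same coding sequence of 1536 bases. The coding transcript of Crabp2 held 98.9% and 99.57% of that gene. Aldh1a1, Aldh1a2 and Crabp1 had 1 transcript each in the deposited tables. In M21 the Aldh1a1 transcript covers 20601961 to 20643462, only a part of the gene interval given with the Aldh1a1 level.

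**Figure D3:**
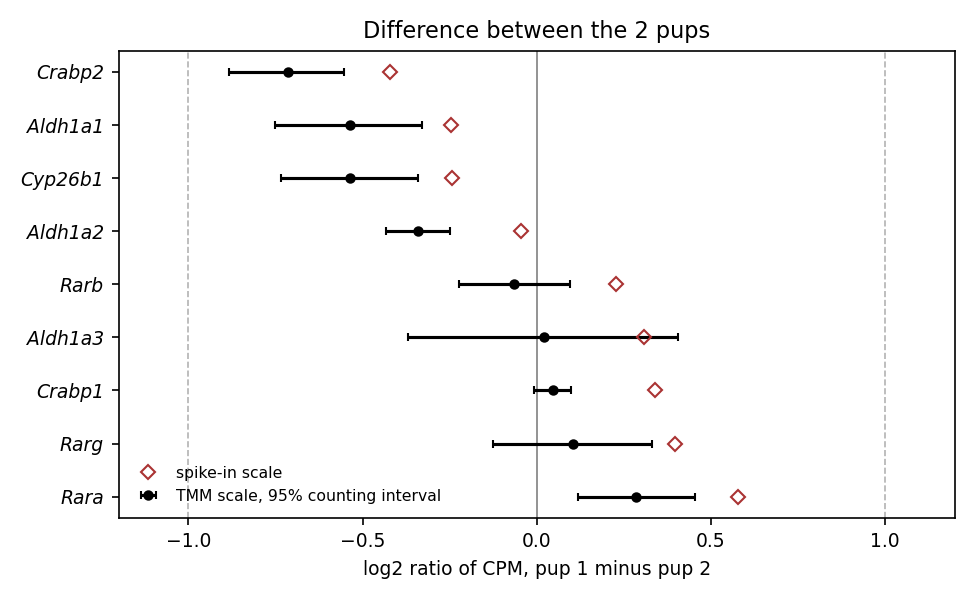
Log2 ratio of CPM, pup 1 minus pup 2, for the 9 genes, sorted from lowest to highest, with points and bars for the TMM scale and its 95% counting interval, open diamonds for the spike-in scale and dashed lines at 2-fold. Crabp2, at -0.71, is farthest from 0, and no member passes a dashed line.

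The pups were compared gene by gene on log2 ratios of CPM after TMM scaling, pup 1 minus pup 2, so a negative value means lower in pup 1. Each ratio has an exact 95% interval from its counts, which covers counting error only. None of the 9 genes differed by 2-fold or more. Of the 18105 genes whose counts averaged 10 or more, 2.39% did, 1.59% by being lower in pup 1 and 0.806% by being higher. All 9 members averaged 100 counts or more, and among the 13545 genes at that depth 0.472% differed by 2-fold. The interval lay below 0 for 4 members (Crabp2, Aldh1a1, Cyp26b1 and Aldh1a2), above 0 for Rara alone, and spanned 0 for the other 4. Over the 18105 genes it lay below 0 for 18.9% and above 0 for 17.9%. That set also holds genes of fewer counts, whose intervals are wider, and no share was computed for the 13545 genes. The median ratio of the members was -0.06 and that of all genes -0.0002.

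Crabp2 differed most. Its 423 and 1021 counts gave a log2 ratio of -0.71 with an interval of -0.88 to -0.55, so pup 1 stood at 0.609 times pup 2, and 3.22% of the 18105 genes had a lower ratio. Aldh1a1, with 275 and 587.01 counts, had a ratio of -0.54 (-0.75 to -0.33). Cyp26b1 had -0.53 (-0.73 to -0.34). Aldh1a2 had -0.34 (-0.43 to -0.25). On the TMM scale these 4 genes were lower in pup 1 beyond counting error, and on the spike-in scale given below Aldh1a2 was not.

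Rara had a ratio of 0.29 (0.12 to 0.45), from 534 and 643 counts. On the TPM scale its difference was 0.42. Of the gap of 0.14 between these values, 0.066 was the difference in the effective length of the gene, an average over its transcripts, which was 2720 bases in pup 1 and 2846 bases in pup 2. A gap of 0.069 also separated the TPM and CPM ratios of Rarb and Aldh1a2, whose lengths were equal in the pups. Crabp1 had 0.05 (-0.01 to 0.10), the narrowest interval of the 9. Rarg had 0.10 (-0.12 to 0.33), Rarb -0.06 (-0.22 to 0.09) and Aldh1a3 0.02 (-0.37 to 0.41). On the TMM scale a difference in these was thus not detectable beyond counting error. The spike-in controls had 335 and 603 counts, and with their totals as the scale every ratio moved by 0.29. On that scale Rara stood at 0.58, Rarg at 0.40, Crabp1 at 0.34, Aldh1a3 at 0.31 and Rarb at 0.23, while Aldh1a2 stood at -0.05, Aldh1a1 and Cyp26b1 at -0.24 and Crabp2 at -0.42. Rara, not Crabp2, was thus farthest from 0 on the spike-in scale. Rarb changed sign, and no member passed 2-fold. The interval then lay below 0 for 3 members (Crabp2, Aldh1a1 and Cyp26b1) and above 0 for 4 (Rara, Rarg, Crabp1 and Rarb), and it spanned 0 for Aldh1a2 and Aldh1a3. Because this scale shifts every gene alike, and the share of all genes on each side was not computed on it, these counts are not particular to the members. These intervals leave out the counting error of the spike-ins themselves.

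**Figure D4:**
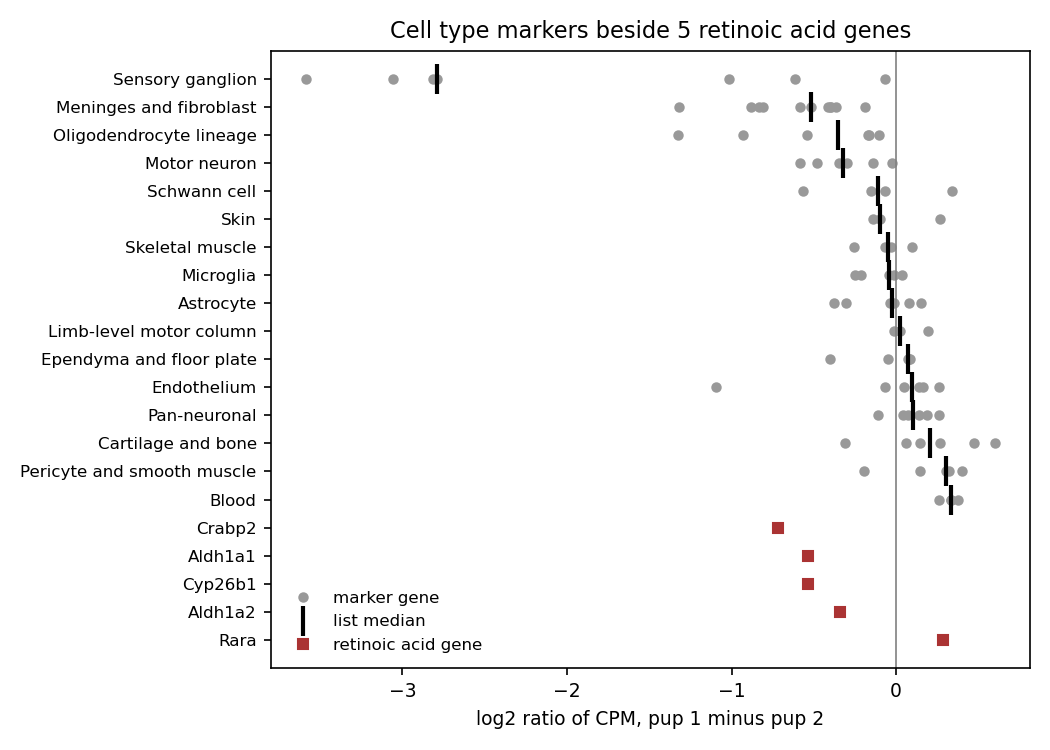
Log2 ratio of CPM, pup 1 minus pup 2, for marker genes of 16 cell types and tissues averaging 10 counts or more (grey points), the median of each list (black bars) and 5 retinoic acid genes (red squares). Markers of sensory ganglion, meninges and fibroblasts, the oligodendrocyte lineage and motor neurons lie left of 0, as do Crabp2, Aldh1a1, Cyp26b1 and Aldh1a2.

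Markers of several cell types differed in the same direction as the 4 members that were lower in pup 1 on the TMM scale. Of the meninges and fibroblast list, 11 of 11 genes were lower in pup 1, with a median log2 ratio of -0.52 and a sum of 1876 TPM in pup 1 and 3374 TPM in pup 2. Ptgds, a prostaglandin synthase of the meninges and of oligodendrocytes, gave 922.16 and 2190.43 TPM of these sums. The meningeal transcription factor Foxc1 had 2.47 and 4.36 TPM. Of the sensory ganglion list, 7 of 7 were lower in pup 1, 4 of them past 2-fold, with sums of 75.3 and 127 TPM. Avil, an actin-binding protein of sensory neurons, had 0.7 and 8.55 TPM. Of the oligodendrocyte lineage, 6 of 6 were lower, with sums of 439 and 699 TPM. Of the motor neuron list, 6 of 6 were lower, with sums of 165 and 203 TPM. The intervals of Chat (-0.29 to 0.24) and Mnx1 (-0.87 to 0.24) spanned 0, as did that of Scn9a in the sensory list (-0.19 to 0.06). These marker directions are given on the TMM scale only, and the spike-in scale raises every ratio by 0.29. The motor column list (Foxp1, Lhx1 and Lhx3, labelled limb-level in the figure) showed no direction beyond counting error, since every interval spanned 0. Its sums were 58.2 and 54.5 TPM. Foxp1, which marks the limb-level column, had 34.05 and 33.87 TPM. Pan-neuronal genes summed to 2951 and 2726 TPM, and astrocyte genes to 1610 and 1623 TPM. For comparison, 9057 of the 18105 genes were lower in pup 1. No gene of the meningeal, sensory, oligodendrocyte or motor neuron lists was at 0 in either pup. The part of these cells in the differences of Crabp2, Aldh1a1, Cyp26b1 and Aldh1a2 was not tested.

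Hox genes, which mark position along the cord, differed in both directions. Hoxa5 and Hoxc8, of cervical and thoracic levels, had 11.38 and 22.83 TPM in pup 1 and 20.13 and 52.01 TPM in pup 2, while Hoxd10, of lumbar levels, had 104.99 TPM in pup 1 and 63.16 TPM in pup 2. Hoxb6, given above, was close in the pups, with a log2 ratio of 0.08, and so did not share the direction of Hoxa5 and Hoxc8. The part of cord position in the members' differences was not tested.

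**Figure D5:**
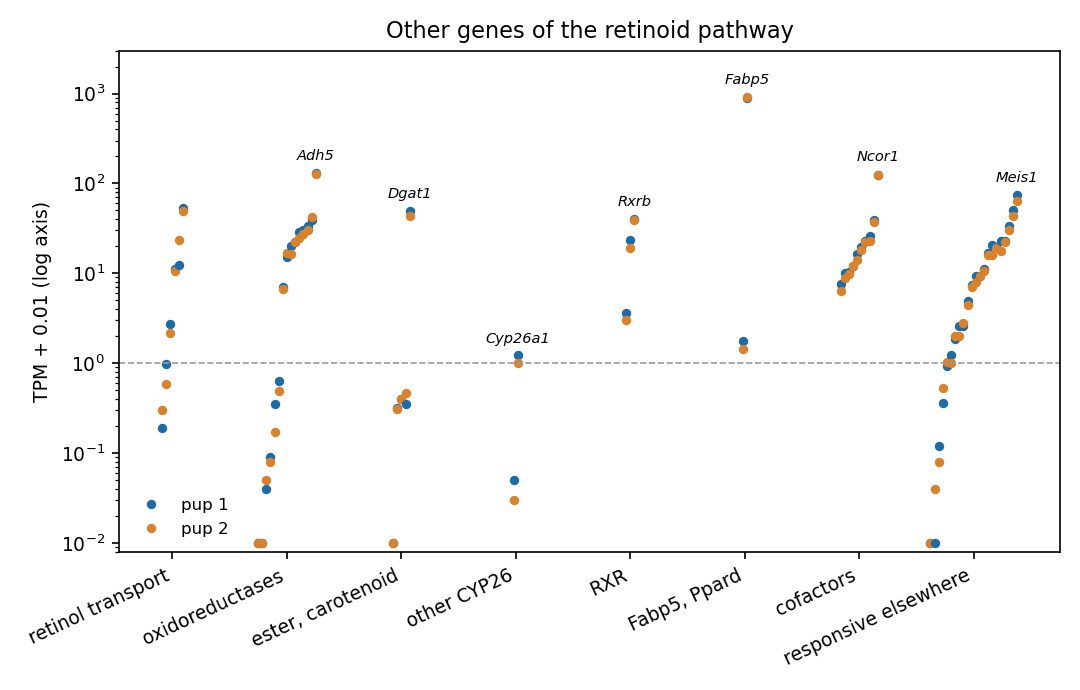
TPM plus 0.01 on a log axis for the 61 other genes of the retinoid pathway by role, with 1 blue point for pup 1 and 1 orange point for pup 2 per gene, the highest gene named for every role but transport, and a dashed line at a TPM of 1. Cofactor and RXR genes all lie above the line, while oxidoreductases and responsive genes spread from 0 to over 50 TPM; 4 genes stand in 2 roles.

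Around the 9 genes, a list of 61 further genes of retinoid transport, metabolism and response was read. Of these, 42 reached a TPM of 1 in both pups, beside 63.8% of all protein-coding rows. The counts by role below stand beside the same share. The median log2 ratio of the listed genes averaging 10 counts or more was 0.05. With 100 counts or more on average, 1 listed gene, Rbp4, passed 2-fold on the TMM scale, beside 0.472% of all genes at that depth. Rbp4, the carrier of retinol in blood, had 12.22 TPM in pup 1 and 23.63 TPM in pup 2 (log2 ratio -1.02, interval -1.28 to -0.78). The spike-in scale raises every ratio by 0.29, which leaves Rbp4 short of 2-fold. On the supply side, 4 of 6 transport and uptake genes were detected. Rbp7, a cytoplasmic retinol-binding protein, was lowest with 0.18 and 0.29 TPM. Stra6, the receptor that takes up retinol from Rbp4, had 11.26 and 10.51 TPM.

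Of the listed retinol and retinaldehyde oxidoreductases, 9 of 15 were detected. Adh5, a broadly expressed alcohol dehydrogenase, led with 130.21 and 127.49 TPM, followed by Rdh14 with 39.22 and 41.86 TPM. Dhrs9 and Adh4 had 0 counts in both pups. Rdh10, the enzyme that makes most of the retinaldehyde for the mouse embryo, had 7.1 and 6.73 TPM, and Dhrs3, which reduces retinaldehyde back to retinol, had 33.37 and 30.15 TPM. Of the ester and carotenoid enzymes 1 of 5 was detected, Dgat1 with 49.14 and 43.92 TPM, a general acyltransferase that can also esterify retinol. Lrat, the dedicated retinol esterifier, had 0.39 TPM in each pup, Bco2, which cleaves carotenoids, had 0.34 and 0.45 TPM, and Rpe65, the isomerase of the eye, had 0 counts.

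The receptors' partners were all detected. Rxrb had 40.11 and 39.28 TPM, Rxrg 23.75 and 19.21 TPM and Rxra 3.59 and 3 TPM. Their sum was 67.5 TPM in pup 1 and 61.5 TPM in pup 2, above the sum of the 3 RAR genes, 28.34 and 24.59 TPM, in each pup. On the alternative route, by which retinoic acid can reach the receptor Ppard, the carrier Fabp5 had 894.49 and 924.94 TPM and Ppard itself 1.77 and 1.42 TPM. Of the binding proteins read here, Fabp5 alone stood above Crabp1. All 10 cofactors were detected, led by the corepressor Ncor1 with 123.6 and 125.44 TPM and the mediator subunit Med1 with 39.67 and 37.68 TPM, with the histone methyltransferase Kmt2d lowest at 7.55 and 6.37 TPM.

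Of 22 genes known to respond to retinoic acid in other settings, 16 were detected. The homeobox genes Meis1, with 74.72 and 64.08 TPM, and Meis2, with 50.3 and 43.81 TPM, were highest. Cdx1, a homeobox gene of the early embryo's posterior end, had 0 counts in both pups. Of the 61 genes, Stra6, Rdh10, Dhrs3 and Lrat were named after their values were seen. Among the 44 of the 61 with a RefSeq promoter window, Cyp26a1 alone held the repeat spaced by 5 bases shown above. Rarb and Cyp26a1, which both carry it, stood at 10.57 and 1.1 TPM on average.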

How the data were processed

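Total RNA-seq of 2 neural tubes was used, 1 library each. Per the deposited notes the tables rest on mm10 and GENCODE M4; their columns are those RSEM writes, and the aligner, like the RSEM version, is not given in the sources used here. The authors deposited expected counts (estimated reads), TPM and FPKM, the bounds of a TPM interval whose level is not stated (signal on the TPM scale), and the percent of each gene's TPM per transcript. Names and positions are those of GENCODE M21 (GRCm38, which is mm10).

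Computed here: expected counts were rounded; TMM factors came from edgeR 4.0.16 (R 4.3.3; alternative: DESeq2 1.42.0) over the 18105 genes averaging 10 counts or more; log2 ratios used a prior count of 2, with exact Clopper-Pearson intervals at the 95% level, for counting error alone. For a gene at 0, up to 3 counts were allowed. Called meant 2-fold; detected meant a TPM of at least 1. Coding sequences came from GENCODE M21 transcripts and promoters from RefSeq on GRCm38.p6. The ratio and its interval were tested on simulated data. Other steps ran in Python 3.11.15 (scipy 1.17.1 for intervals, pandas 2.3.3 and numpy 2.4.6 for tables, matplotlib 3.10.9 for plots).

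All members were named, all RXR and CYP26 genes, and in each other role the 2 highest genes by mean TPM and the lowest, any gene detected in exactly 1 pup and any past 2-fold at a mean count of at least 100; of transcripts, the leading ones and receptor forms of at least 10%. A few genes that this rule takes are not reported here. The members and lists were chosen with earlier results of these data known. With 2 libraries, no genes of like pattern were sought.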

Additional observations from a re-analysis of the deposited data

How the results depend on the processing

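No paired analysis was possible because the series holds 1 group. The count of members past 2-fold was 0 under DESeq2 size factors, library totals, spike-in totals, posterior mean counts, a prior count of 0.5 and no filter on low counts. Spike-in totals moved every ratio by 0.29 and turned Rarb positive (0.23). Of the member intervals, 3 then lay below 0 and 4 above, with no share of all genes computed on that scale. Under the 5 others all 9 ratios kept their sign and moved by at most 0.017. The posterior mean TPM put 5 of 9 genes in the same place in the order, with Rara above Rarb and Rarg above Aldh1a1; FPKM kept all 9. With the posterior mean TPM, the Aldh1a2 share of synthesis was 76.9%, the Rarb share of receptors 33.6%, the Rara-202 share of Rara 43.2%, the Rarg-202 share of Rarg 32.4% and the Rarg-201 share 20.3%. By expected counts these shares were 79.4% for Aldh1a2, 52.8% for Rara-202, 58.4% for Rarg-202 and 40.7% for Rarg-201, since counts are not divided by length. Pathway genes detected numbered 45 at a TPM of at least 0.5 and 40 at 2. With 1 pup alone, 7 or 6 genes held their place in the order, 43 pathway genes were detected with either pup, and the Rarb share was 37.4% to 42.9%. TPM rescaled to nuclear protein-coding genes raised 8 of 9 levels (not Crabp2) by more than the SD, to 492 TPM for Crabp1, 13.2 for Rarb and 3.59 for Aldh1a3. Depth limits Aldh1a3 most, with 96 and 139 counts.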

Other observations

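The deposited TPM of Crabp1 in pup 1, 410.66, lay above its own deposited interval of 387 to 409 TPM. It was the only member value outside its interval, in either pup, and 1383 gene rows of pup 1 had a TPM outside theirs. The posterior mean TPM of Crabp1 was 397.43 in pup 1 and 371.3 in pup 2.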
